A study of Homo sapiens with 4 samples.

Results

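The genes described here encode the transport machinery, the gate and the base of the primary cilium. They were chosen by name as 50 genes of intraflagellar transport (IFT), the BBSome, the transition zone, the delivery of membrane cargo and the basal body. The rule used names and no measured value, but the list was drawn up with earlier results of these data known. All 50 were among the 12912 genes of the table of raw counts, and 48 passed the filter on low counts. They were measured by RNA-seq in 2 libraries of each of a pair of sublines, 786-O-Ctrl and 786-O-VHL. 786-O is a human clear cell renal cell carcinoma line that lacks functional VHL, and the labels give 786-O-Ctrl as VHL-null. In 786-O-VHL, the missing gene was put back by a retroviral vector for HA-tagged VHL. Both groups belong to the 786-OTR line, which also carries GFP, luciferase and thymidine kinase reporters from a second retroviral vector. Each group is 1 subline and its RNA was extracted in duplicate, so the replicates cover the spread between extractions, and differences between sublines other than VHL cannot be told apart from it.

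The primary cilium is a single antenna of microtubules that grows from the mother centriole of a cell that is not dividing. IFT-B trains, carried by kinesin, bring building material to its tip, and IFT-A trains, carried by dynein-2, return to the base, while the BBSome rides on them and takes membrane receptors out. The transition zone is a gate of membrane and scaffold proteins between the base and the shaft, which keeps the ciliary membrane distinct from the rest of the cell surface. In kidney tubules the cilium senses fluid flow, loss of its proteins causes cystic and nephronophthisis-type disease, and VHL protein is known to act in the maintenance of cilia beside its role in the degradation of hypoxia-inducible factors (HIF).

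Many ciliary genes carry in their promoters the X-box, a palindrome bound by factors of the RFX family. To show where this element lies among these genes, the 250 bases before the start of each gene were searched on both strands for the half-site GTNNCC, any 2 bases and the inverted half-site GGNNAC. RefSeq promoters matched 45 of the 50 genes by symbol (GRCh38.p14 table), and each was placed on GRCh37 by an exact match. The X-box letters were found in 6 of the 45 promoters (13.3%) and in 486 of all 27303 promoters (1.78%). Those 6 sequences are shown with 8 flanking bases on each side, 5′ to 3′ on the strand of the gene, with the X-box in capitals.
WDR19, chr4:39184078-39184107, plus strand: ctcgcgcgGTCTCCTGGGTGACgggaacgc
IFT57, chr3:107941280-107941309, minus strand: ggagtctaGTTTCCCTGGTGACggattgtc
ARL6, chr3:97483570-97483599, plus strand: aagctcctGTTGCCAAGGGAACggtgcctg
TMEM231, chr16:75590169-75590198, minus strand: agccgtcgGTTGCCGTGGAGACcgaggcga
B9D1, chr17:19281398-19281427, minus strand: ctgggactGTTACCTTGGCTACtggctccc
AHI1, chr6:135818925-135818954, minus strand: acgcatcgGTCGCCATGGGAACggcggcgt
In 786-O-VHL the RNA of WDR19, TMEM231, B9D1 and AHI1 was higher, and that of IFT57 and ARL6 did not pass the test. By call, the letters were found in 4 of 19 genes that rose and 2 of 16 that were not called, and in no promoter of the 8 genes that fell. The stricter half-site GTTGCC, which can lie inside an X-box as in ARL6 and TMEM231, was found in 16 of the 45 promoters (35.6%) and in 10.1% of all promoters. By call, it was in 6 of 19 genes that rose, 2 of 8 that fell and 8 of 16 that were not called. The letters ACGTG, the core of the element bound by HIF, were found in 8 of the 45 (17.8%) and in 18.7% of all. They were in 2 of the 19 genes that rose, 3 of the 16 that were not called and 3 of the 8 that fell. The 3 that fell were ARL3, IFT81 and IFT172. A match describes these letters only and is not evidence of binding.

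Depth was uneven, with 22141263 and 15714166 counts for the control libraries and 2807779 and 16114120 for 786-O-VHL replicates 1 and 2. The median cilium gene had 60.5 counts in 786-O-VHL replicate 1 and between 274 and 385.5 in the other libraries. Both 786-O-Ctrl columns carry the same replicate number, and they are told apart here by depth, as deeper and shallower. VHL (chr3:10183462-10195351, GRCh37) was at 42.9 and 43.9 CPM (counts divided by the TMM-scaled library size) in them and at 178 and 163 CPM in 786-O-VHL replicates 1 and 2, which differ on the log2 scale by 1.96 ± 0.0706 (SE, false discovery rate (FDR) 2.86e-19). These counts do not tell vector RNA from the RNA of the mutated endogenous gene. The renal factor PAX8 was at 277, 272, 166 and 137 CPM in the deeper and shallower 786-O-Ctrl library and 786-O-VHL replicates 1 and 2. That order is kept wherever 4 values are given. All 8 markers of kidney epithelium and of this line were tested, with 1 higher (CDH6, log2 fold change 0.45) and 5 lower. Among all genes tested, 32.6% were higher and 31.9% lower. Of 5 markers of other cell types 2 were in the table, of which the endothelial PECAM1 had between 1 and 9 counts and COL1A1 of fibroblasts was at 5.72 to 7.12 CPM. All 6 proliferation markers on a short list fell, by log2 fold changes from -1.83 (PCNA) to -0.28 (TOP2A). MKI67, a marker of cycling cells, was at 365, 358, 140 and 157 CPM. In RNA from whole cultures, fewer cells of a kind and less RNA per cell cannot be told apart.

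Of the 48 tested cilium genes, 29 passed the test, of which 20 rose in 786-O-VHL and 9 fell, and 19 did not pass at FDR < 0.05 (edgeR). Among all 12335 genes tested, 64.5% passed, with 32.6% that rose and 31.9% that fell, against 41.7% and 18.8% of the cilium genes. The median log2 fold change, 786-O-VHL over 786-O-Ctrl, was 0.19 for the cilium genes and 0.017 for all genes, and the median size of the change was 0.39 and 0.43. Changes over 1.5-fold were found for 12 cilium genes, which were 10 of those that rose and 2 of those that fell. At that threshold 34.8% of all genes passed, 18.5% as higher and 16.3% as lower. The groups did not overlap for 34 of the 48 genes, against 80.0% of all genes, and lay higher in 786-O-VHL for 24 and lower for 10, against 40.8% and 39.2% of all genes. The 19 genes without a call had log2 fold changes between -0.25 and 0.40 with SE between 0.0918 and 0.241. Scaled by library totals alone, 25 rose and 6 fell, and the median of all genes moved from 0.017 to 0.15. DESeq2 called 10 higher and 5 lower, and leaving out 786-O-VHL replicate 2 left 13 and 4. Without the shallow 786-O-VHL replicate 1, the counts were 21 and 9, and without the deeper 786-O-Ctrl library they were 15 and 5.

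**Figure D1:**
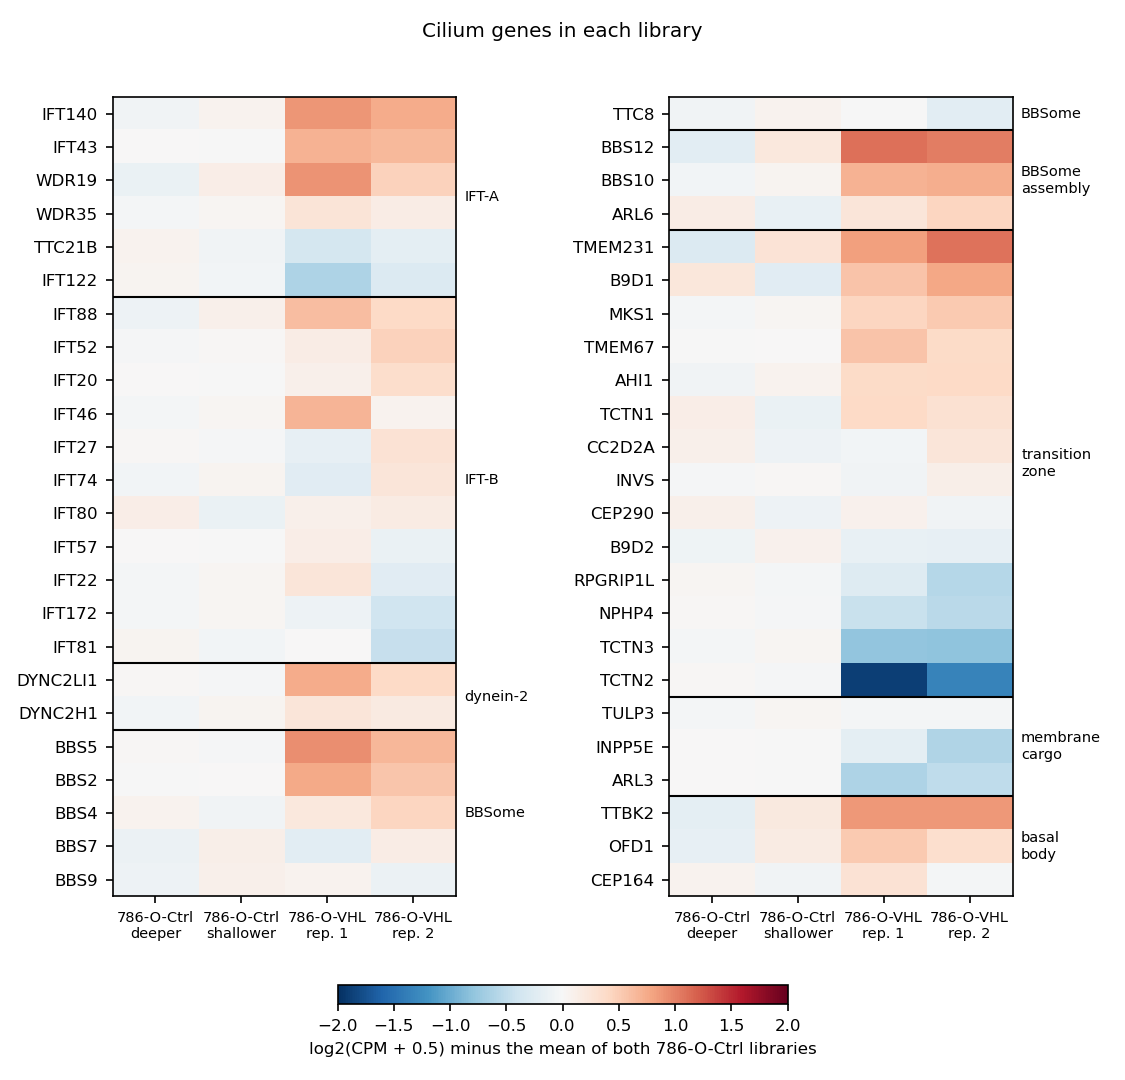
Level of the 48 tested cilium genes in each of the 4 libraries, as log2(CPM + 0.5) minus the mean of both 786-O-Ctrl libraries (red higher, blue lower), ordered by role and fold change. The strongest blue is TCTN2, at 5.09 and 7.72 CPM in 786-O-VHL, and the strongest red is BBS12, at 9.50 and 9.03 CPM.

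**Figure D2:**
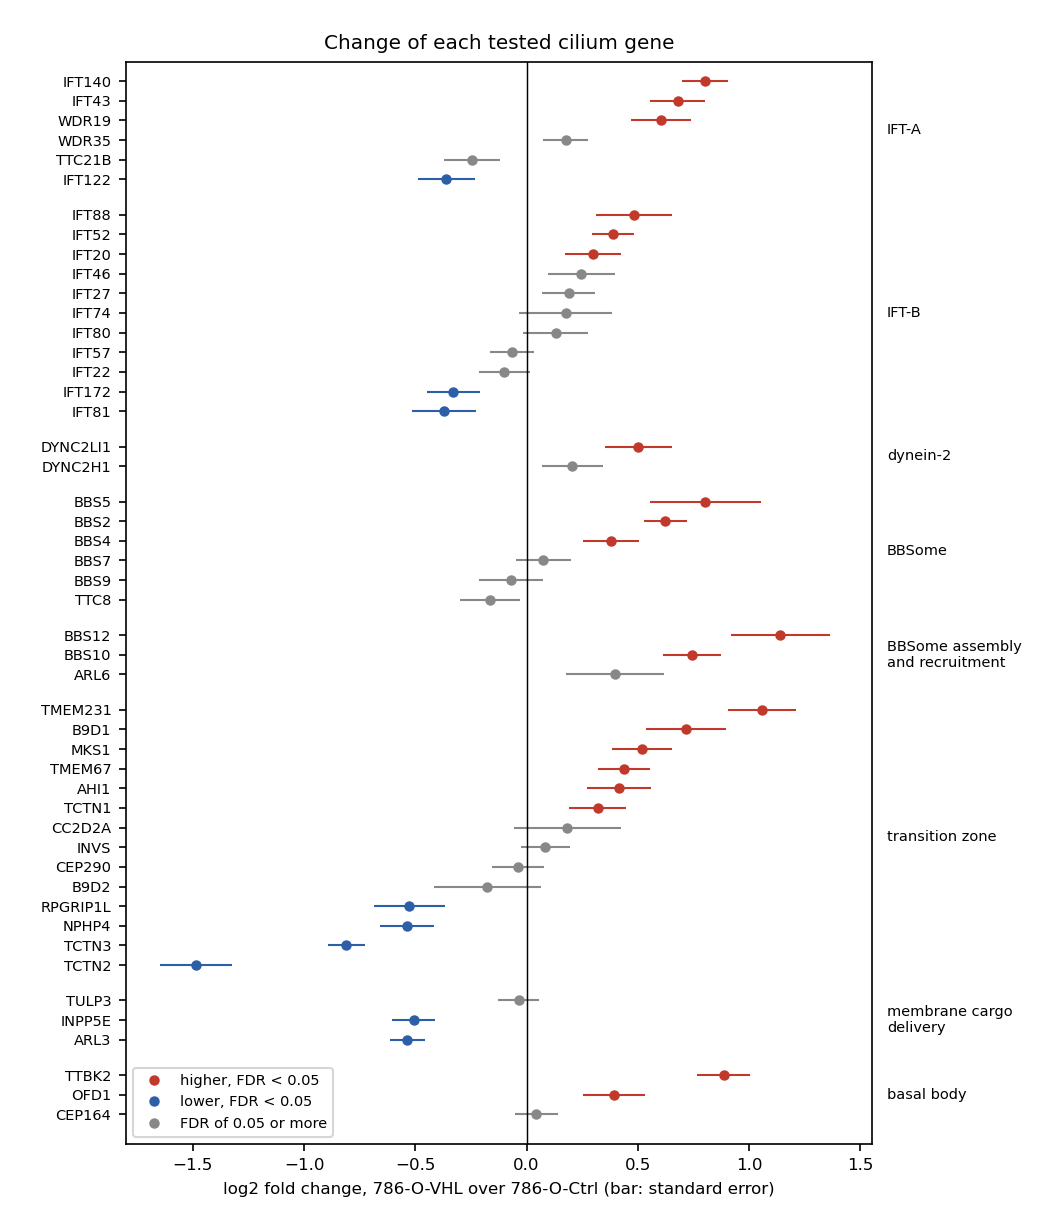
Log2 fold change of each tested cilium gene, 786-O-VHL over 786-O-Ctrl, with its standard error as a bar, grouped by role. Genes with FDR < 0.05 are red (20 higher) or blue (9 lower), and the range runs from -1.48 for TCTN2 to 1.14 for BBS12.

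IFT-A, the retrograde train that also brings membrane proteins into the cilium, had 3 of its 6 genes higher, 1 lower and 2 without a call. The shares over all genes tested were 32.6% higher and 31.9% lower, and whether IFT-A differs from them was not tested. The risers of IFT-A were IFT140 and WDR19, which belong to the core of the complex, and IFT43, a small peripheral subunit. IFT140 was at 23.4, 25.7, 45.8 and 41.5 CPM, a rise from 24.5 ± 1.67 to 43.6 ± 3.07 (SD, n = 2 each; 1.74-fold, log2 fold change 0.80 ± 0.103 SE, FDR 1.02e-07). IFT43 was at 15.6, 15.5, 25.4 and 24.7 CPM (1.60-fold, FDR 2.24e-05). Both replicates of 786-O-VHL stood well above both 786-O-Ctrl libraries for each of these genes. WDR19, the first of the X-box sequences above, was at 15.6, 18.7, 32.2 and 23.9 CPM (1.52-fold, log2 0.60 ± 0.136, FDR 0.000321), so that its 786-O-VHL replicates differed from each other more than its 786-O-Ctrl libraries did. The other core subunit, IFT122, went the other way, at 24.03, 22.2, 14.9 and 18.9 CPM (log2 fold change -0.36 ± 0.127, FDR 0.0146). Its call was lost with DESeq2, with scaling by library totals alone and with all libraries thinned to the depth of the shallowest. It was also lost without the deeper 786-O-Ctrl library. The peripheral subunits WDR35 and TTC21B had log2 fold changes of 0.18 (FDR 0.127) and -0.25 (FDR 0.0892). Summed over its 6 genes, IFT-A was at 131, 134, 172 and 162 CPM. IFT43 overlaps TTLL5 and IFT140 overlaps unnamed genes on the same strand, so that their reads may be shared.

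IFT-B, the anterograde train, had 3 of its 11 chosen genes higher, 2 lower and 6 without a call, and none of these changes reached 1.5-fold. The shares higher and lower were 27.3% and 18.2%, against 32.6% and 31.9% of all genes. Among its core subunits, IFT88, whose loss causes polycystic kidneys in mice, was at 8.22, 9.64, 13.9 and 11.9 CPM (1.40-fold, FDR 0.0157). IFT52, which ties the core together, was at 36.3, 37.5, 41.0 and 50.8 CPM (log2 fold change 0.39 ± 0.0935, FDR 0.000651). IFT20, a peripheral subunit that also sits at the Golgi, was at 18.3, 18.2, 19.7 and 23.3 CPM (log2 0.30 ± 0.124, FDR 0.0365). The groups did not overlap for these 3 genes, although the lower 786-O-VHL replicate came close to 786-O-Ctrl for IFT20. Of those that fell, IFT172, the largest peripheral subunit, was at 26.3, 27.5, 25.1 and 20.3 CPM (log2 -0.33 ± 0.119, FDR 0.0177). IFT81, which binds tubulin together with IFT74, was at 19.5, 17.9, 18.7 and 13.4 CPM (log2 -0.37 ± 0.145, FDR 0.0273), and here the groups overlapped. The fit weighs libraries by their depth, so that the shallow 786-O-VHL replicate 1 counts for less than replicate 2. The genes without a call were IFT22, IFT27, IFT46, IFT57, IFT74 and IFT80, with log2 fold changes between -0.10 and 0.25. IFT46 was at 15.6, 16.6, 26.1 and 16.9 CPM (log2 0.25, FDR 0.152), so that 1 of its 786-O-VHL replicates stood apart from the other 3 libraries. Some IFT-B subunits outside the chosen genes passed 1.5-fold and are given with a related list below. CLUAP1 rose (1.92-fold, FDR 1.37e-06). HSPB11 and TTC30A fell to 0.553 and 0.546 of the 786-O-Ctrl level (FDR 5.49e-07 and 0.00697). None of the 5 calls among the chosen IFT-B genes held in every fit. Leaving out the deeper 786-O-Ctrl library left 1 of them (IFT52), leaving out the shallower one left 2 (IFT52 and IFT88), and leaving out 786-O-VHL replicate 2 ended all 5 and added IFT46.

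Dynein-2, the motor of the return trip, was represented by its heavy chain and a light intermediate chain. DYNC2LI1, the light intermediate chain, was at 12.01, 11.6, 20.01 and 15.7 CPM (1.42-fold, log2 0.50 ± 0.15, FDR 0.00469). The heavy chain DYNC2H1 was at 14.5, 15.6, 17.98 and 17.1 CPM, which did not pass the test (log2 0.21 ± 0.136, FDR 0.19).

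Among the chosen genes, the BBSome and its assembly factors had 5 of 9 tested genes higher and 4 without a call. These were 3 of 6 BBSome genes higher and 2 of 3 assembly and recruitment genes. Of all genes tested, 32.6% were higher and 31.9% lower. BBIP1 of the BBSome, its assembly factor MKKS and its regulator LZTFL1 were counted in a related list below. There BBIP1 fell (log2 fold change -0.42, FDR 0.0136), and LZTFL1 and MKKS had no call (log2 -0.04 and 0.23). The BBSome is a coat of Bardet-Biedl syndrome proteins that carries receptors out of the cilium. Of its 6 subunits tested among the chosen genes, 3 rose. BBS2 was at 30.2, 30.6, 51.9 and 44.9 CPM, with means of 30.4 ± 0.295 and 48.4 ± 4.96 (SD, n = 2 each; 1.54-fold, FDR 2.27e-06). BBS4 was at 18.3, 16.6, 20.4 and 23.6 CPM (log2 fold change 0.38 ± 0.125, FDR 0.0095). BBS5 was a gene of few reads, with 72, 49, 20 and 94 counts or 3.42, 3.26, 6.78 and 5.58 CPM (1.75-fold, log2 0.80 ± 0.25, FDR 0.00641). No overlap between groups was seen for any of them. BBS7, BBS9 and TTC8 had log2 fold changes of 0.08, -0.07 and -0.16 and their groups overlapped. Leaving out the deeper 786-O-Ctrl library ended the call of BBS5, the shallower one those of BBS4 and BBS5, and 786-O-VHL replicate 2 that of BBS4. BBS1 (chr11:66278077-66301084) was not tested, with 16, 8, 0 and 7 counts, and 3 counts in 786-O-VHL replicate 1 would correspond to 1.02 CPM.

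Among the chosen factors that build or recruit the BBSome, the chaperonin-like BBS10 and BBS12 rose. MKKS, a further chaperonin-like gene from the related list, had no call (log2 fold change 0.23, FDR 0.162). BBS12 (ENSG00000181004.10, chr4:123653857-123666097, plus strand) had the largest rise of the 48 genes, with 74, 74, 28 and 152 counts. That corresponds to 3.51, 4.92, 9.50 and 9.03 CPM, or means of 4.22 ± 0.993 and 9.26 ± 0.334 (SD, n = 2 each; 2.21-fold, log2 1.14 ± 0.222, FDR 5.75e-05). BBS10 (ENSG00000179941.9, chr12:76738254-76742195, minus strand) was at 13.2, 14.4, 22.7 and 23.1 CPM (1.67-fold, log2 0.74 ± 0.129, FDR 1.31e-05). In both genes the 786-O-VHL replicates lay close together and far above 786-O-Ctrl, and neither overlaps another annotated gene. ARL6, the small GTPase that recruits the BBSome to membranes, was at 5.70, 4.52, 6.11 and 7.01 CPM (log2 0.40 ± 0.222, FDR 0.119).

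Of the 14 tested transition zone genes, 6 were higher (42.9%), 4 lower (28.6%) and 4 without a call, which is near the 32.6% and 31.9% of all genes. TMEM231, MKS1, B9D1, TMEM67, AHI1 and TCTN1 rose, whereas TCTN2, TCTN3, NPHP4 and RPGRIP1L fell. The summed level of the zone was 274, 274, 257 and 260 CPM.

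TMEM231 (ENSG00000205084.11, chr16:75570639-75590187, minus strand), a membrane protein of the gate that carries an X-box above, was at 9.64, 14.2, 21.0 and 25.5 CPM. The means of 11.9 ± 3.24 and 23.3 ± 3.14 (SD, n = 2 each) differ by 2.08-fold (log2 1.06 ± 0.154, FDR 8.99e-07), and unnamed genes overlap it on the same strand. B9D1 and MKS1 encode B9-domain proteins of one complex. B9D1 was at 9.26, 6.65, 11.9 and 13.7 CPM (1.64-fold, FDR 0.00103) and MKS1 at 13.2, 13.9, 18.3 and 19.7 CPM (1.43-fold, FDR 0.00143). Their partner B9D2 had a log2 fold change of -0.18 with FDR 0.535. TMEM67, a receptor-like membrane protein, and AHI1, whose loss causes Joubert syndrome, had log2 fold changes of 0.44 (FDR 0.00183) and 0.42 (FDR 0.0132). For these 5 genes every 786-O-VHL library lay above every 786-O-Ctrl library.

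The tectonics, a family of related proteins of the same gate, did not move together. TCTN2 (ENSG00000168778.12, chr12:124155657-124192946, plus strand) had the largest fall of the 48 genes, with 433, 299, 15 and 130 counts. In CPM it was at 20.6, 19.9, 5.09 and 7.72, with means of 20.2 ± 0.488 and 6.40 ± 1.86 (SD, n = 2 each; log2 -1.48 ± 0.161, FDR 4.61e-09), which leaves 0.357 of the 786-O-Ctrl level. TCTN3 (ENSG00000119977.21, chr10:97419580-97453900, minus strand) was at 66.6, 70.8, 39.4 and 39.0 CPM (log2 -0.81 ± 0.082, FDR 1.23e-09). Both falls exceeded the spread between libraries by far, and TCTN3 overlaps no other annotated gene. TCTN1 was at 20.4, 16.7, 24.4 and 23.0 CPM and passed the test as higher (log2 0.32 ± 0.128, FDR 0.0302), a call that was lost without the shallower 786-O-Ctrl library and without 786-O-VHL replicate 2.

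NPHP4 and RPGRIP1L, scaffold proteins of the nephronophthisis module, both fell. NPHP4 was at 25.1, 24.3, 17.98 and 16.8 CPM (log2 -0.54 ± 0.122, FDR 0.000379). RPGRIP1L was at 14.7, 14.02, 11.9 and 9.50 CPM (log2 -0.53 ± 0.16, FDR 0.00536). Without 786-O-VHL replicate 2 both of these calls and those of B9D1, MKS1 and AHI1 were lost as well, which left 2 genes higher and 2 lower in the zone. The calls of AHI1 and RPGRIP1L were also lost without the deeper 786-O-Ctrl library, and that of B9D1 without the shallower one. CEP290, which links membrane and microtubules, CC2D2A and INVS, the organiser of the inversin compartment, had log2 fold changes of -0.04, 0.18 and 0.08 with FDR between 0.521 and 0.783. TMEM216 (chr11:61159865-61166338) was not tested, with 8, 13, 1 and 7 counts.

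**Figure D3:**
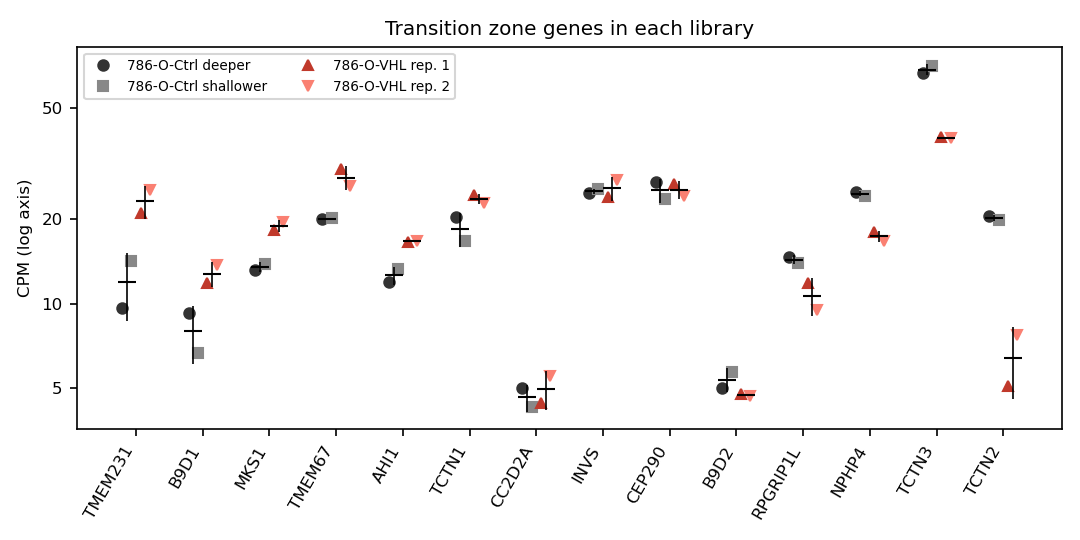
CPM (log axis) of the 14 tested transition zone genes in each library, with the mean and SD of each group as black lines (n = 2 each), ordered by fold change. TMEM231 to TCTN1 on the left lie higher in 786-O-VHL, and RPGRIP1L to TCTN2 on the right lie lower, with TCTN3 going from 68.7 ± 2.97 to 39.2 ± 0.237 CPM.

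Genes that deliver membrane cargo fell or stayed without a call. ARL3, the GTPase that unloads lipid-anchored proteins inside the cilium, was at 66.7, 66.5, 43.4 and 46.7 CPM, or 66.6 ± 0.104 against 45.0 ± 2.30 (SD, n = 2 each; log2 -0.54 ± 0.079, FDR 1.04e-06). INPP5E, a lipid-anchored phosphoinositide phosphatase and a cargo of ARL3, was at 54.3, 53.7, 47.2 and 35.3 CPM (log2 -0.51 ± 0.0963, FDR 4.34e-05), and its call was lost without 786-O-VHL replicate 2. TULP3, the adaptor that brings receptors in with IFT-A, was at 38.9, 40.9, 38.7 and 38.9 CPM (log2 -0.04, FDR 0.752). The groups did not overlap for ARL3 and INPP5E, neither of which overlaps another annotated gene.

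At the basal body, TTBK2 rose, a kinase recruited to the mother centriole that starts the growth of the cilium. TTBK2 (ENSG00000128881.17, chr15:43030928-43213007, minus strand) was at 18.9, 24.9, 39.7 and 40.0 CPM (1.85-fold, log2 0.89 ± 0.117, FDR 1.84e-07). OFD1, a protein of centrioles and their satellites, was at 14.4, 18.2, 23.4 and 20.5 CPM (1.31-fold, FDR 0.0147), a call that was lost without the deeper 786-O-Ctrl library. CEP164, the distal appendage protein that recruits TTBK2, was at 45.1, 41.2, 52.9 and 41.9 CPM (log2 0.04, FDR 0.711). The kinase stood clear of its 786-O-Ctrl libraries and its recruiter did not.

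Of the 29 calls, 11 were made under each of 13 other fits, which were DESeq2, limma-voom, other scalings and filters, thinning of all libraries to the depth of the shallowest, each library left out, and the replicate block in both pairings. These were BBS2, BBS10, BBS12, IFT43, IFT140, WDR19, TMEM231 and TTBK2 among the genes that rose and ARL3, TCTN2 and TCTN3 among those that fell. Across these fits the log2 fold change of TCTN2 lay between -1.996 and -1.35, that of TCTN3 between -1.05 and -0.68, and that of BBS12 between 0.89 and 1.37. The library kit as labelled does not mark strand, and 31 of the 50 genes overlap a gene on the opposite strand and 21 one on the same strand. Of the 29 called genes, 10 overlap neither. Overlaps are of whole gene spans, introns included, and exons were not compared, so reads could be shared in fewer genes than these.

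Levels of different genes can be compared only per length, for which CPM was divided by the length of the canonical transcript in kilobases. The median cilium gene was at 5.23 CPM per kb before VHL was put back and at 6.05 with it. TCTN3 had the highest level in 786-O-Ctrl, at 27.3 ± 1.18 CPM per kb (SD, n = 2), and the sixth highest in 786-O-VHL, at 15.6 ± 0.0941. IFT27, IFT20 and IFT52 followed it in 786-O-Ctrl at 22.0 ± 0.519, 21.2 ± 0.0989 and 21.1 ± 0.493 CPM per kb, of which IFT20 and IFT52 did not differ beyond their spread. IFT43 rose from the fifth place, 19.0 ± 0.0787 CPM per kb, to the highest, 30.7 ± 0.64. The lowest tested gene in both groups was CC2D2A, at 0.891 and 0.958 CPM per kb. By role, the genes of membrane cargo delivery had the highest median in 786-O-Ctrl (15.8 CPM per kb) and the BBSome assembly factors the lowest (1.30), and the latter stood at 2.86 in 786-O-VHL. A cell that uses another transcript than the canonical one would have another length.

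**Figure D4:**
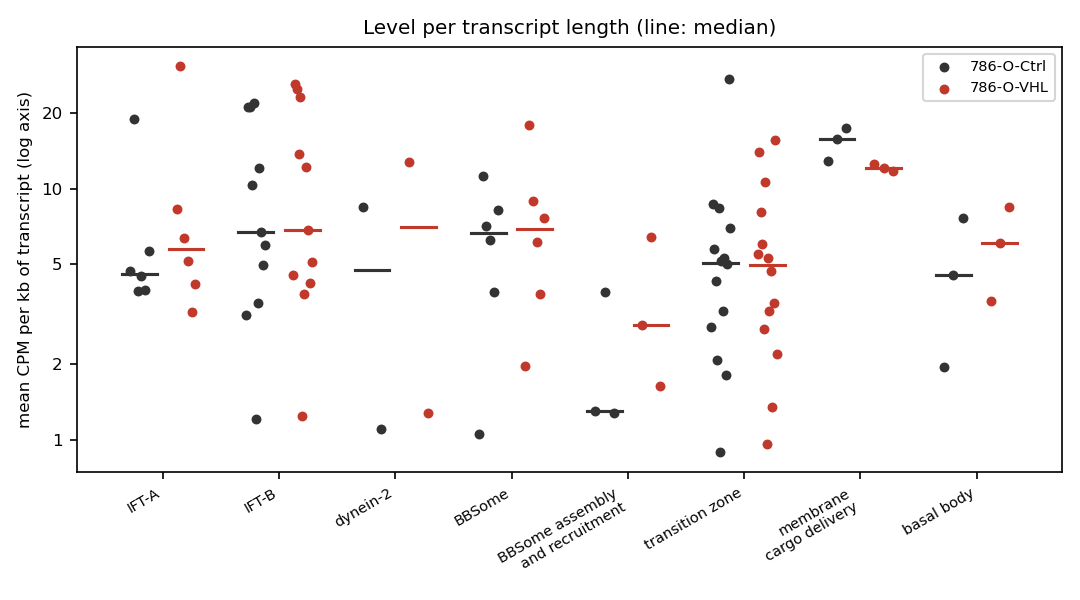
Mean CPM per kb of canonical transcript (log axis) for each tested cilium gene, by role, in 786-O-Ctrl (black) and 786-O-VHL (red), with medians as lines. The membrane cargo genes lie highest in 786-O-Ctrl with a median of 15.8, and the BBSome assembly factors go from a median of 1.30 to 2.86.

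Related lists of genes around this machinery were read from the same fit and are described by their counts beside the 32.6% and 31.9% of all genes. Of 16 genes in the list of other train and motor subunits, 2 rose and 6 fell (median log2 fold change -0.13). This list also holds BBIP1 of the BBSome, its assembly factor MKKS and its regulator LZTFL1, of which BBIP1 is among the falls. CLUAP1, an IFT-B subunit, was at 11.8, 10.3, 23.1 and 20.8 CPM (log2 0.94 ± 0.141, FDR 1.37e-06), and the dynein-2 light chain gene TCTEX1D2 had a log2 fold change of 1.04 ± 0.447 (FDR 0.0436), a call that was lost when any library was left out. The IFT-B subunit HSPB11 fell (log2 -0.86, FDR 5.49e-07), as did TTC30A (log2 -0.87, FDR 0.00697), whose near-identical copy TTC30B may share its reads and whose call was lost without the deeper 786-O-Ctrl library. The 6 calls of falling genes in this list came down to 2 without the deeper 786-O-Ctrl library, 3 without the shallower one and 2 without 786-O-VHL replicate 2. Of 11 tested transition zone and inversin genes outside the 50, 2 rose and 2 fell, with TMEM237 at 31.9, 37.7, 17.6 and 17.9 CPM (log2 -0.95, FDR 7.12e-08). Both risers, TMEM17 and CSPP1, lost their calls without the deeper 786-O-Ctrl library and without 786-O-VHL replicate 2. The fall of ANKS6 (log2 -0.19, FDR 0.0178) was lost when either 786-O-Ctrl library or 786-O-VHL replicate 2 was left out.

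Genes of the distal appendages and of the first steps of ciliogenesis split into 3 of 16 higher and 7 lower. C2CD3, which is needed to build the appendages, was at 34.9, 39.7, 71.6 and 105 CPM (log2 1.36 ± 0.10, FDR 1.87e-12). RAB3IP, the exchange factor known as Rabin8 that activates RAB8, was at 9.07, 9.24, 21.7 and 19.8 CPM (log2 1.15, FDR 8.96e-08). EHD1, which shapes the ciliary vesicle, was at 228, 216, 111 and 105 CPM (log2 -1.06, FDR 9.35e-14), and ODF2, a protein of the appendages, also fell (log2 -0.95, FDR 9.34e-12). The 7 falls came down to 4 without the deeper 786-O-Ctrl library and 3 without 786-O-VHL replicate 2.

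The genes of cilium disassembly moved one way, with 7 of 8 lower (median log2 fold change -0.53). AURKA, the mitotic kinase that triggers the resorption of the cilium, was at 158, 163, 70.9 and 75.8 CPM (log2 -1.11 ± 0.0693, FDR 5.47e-14). CENPJ, which acts in centriole growth and in disassembly, was at 15.7, 16.9, 7.12 and 5.52 CPM (log2 -1.48 ± 0.177, FDR 2.97e-08). PLK1, chosen after its values were seen, had a log2 fold change of -0.69 (FDR 8.92e-10), and the gene without a call was KIF2A (log2 -0.0045, FDR 0.974). AURKA, PLK1, CENPJ and NEK2 of this list are also genes of dividing cells. The 6 proliferation markers summed to 1593, 1596, 866 and 932 CPM, and their part in these falls was not tested. The count of 7 came down to 5 without the deeper 786-O-Ctrl library or 786-O-VHL replicate 2.

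Among ciliary membrane proteins and their carriers, 6 of 12 rose and 5 fell. Genes of polycystic kidney disease were among the rises. PKHD1, which encodes fibrocystin, was at 1.47, 2.19, 7.80 and 5.94 CPM (log2 1.83 ± 0.291, FDR 3.4e-06). CYS1, which encodes cystin, had a log2 fold change of 1.41 (FDR 6.09e-05), a call that was lost without 786-O-VHL replicate 2. PKD1, the polycystin gene, chosen after its values were seen, was at 128, 123, 226 and 246 CPM (log2 0.92, FDR 7.62e-13), and reads from its pseudogenes may be among these. The adenylyl cyclase ADCY3 was at 80.4, 76.4, 32.2 and 35.99 CPM (log2 -1.16, FDR 8.63e-13). RP2, which switches off ARL3, was at 33.6, 32.9, 27.5 and 21.4 CPM (log2 -0.55, FDR 0.000132), and its call was lost without 786-O-VHL replicate 2, where the log2 fold change was -0.28. The 5 calls of falling genes came down to 1 without that library, when the shallow replicate 1 alone stood for 786-O-VHL, and to 3 without the deeper 786-O-Ctrl library.

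The Hedgehog pathway, whose signal passes through the cilium, had 5 of 14 tested genes higher and 5 lower. Its target and effector GLI1 was at 1.90, 2.66, 7.12 and 7.66 CPM, from 40, 40, 21 and 129 counts (log2 1.75 ± 0.26, FDR 1.18e-06). The receptor PTCH1, also a target and chosen after its values were seen, was at 10.2, 9.70, 14.9 and 17.4 CPM (log2 0.76, FDR 8.22e-05), a call that was lost without 786-O-VHL replicate 2. Another target, HHIP, went the other way (log2 -1.46 ± 0.335, FDR 0.000417). EVC2, which works with smoothened at the base of the cilium, rose (log2 1.02, FDR 2.5e-06), and GPR161, a ciliary receptor that restrains the pathway, fell (log2 -0.67, FDR 4.54e-07). The 5 falls came down to 2 without either 786-O-Ctrl library and without 786-O-VHL replicate 2.

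In the list of RFX and FOXJ1 factors, 2 of 6 tested genes rose, 1 fell and 3 had no call. Of the RFX factors, RFX1 and RFX2 were not called (log2 0.22 and -0.03, FDR 0.0549 and 0.868). RFX3 was at 5.08, 6.18, 8.48 and 14.4 CPM (log2 1.22 ± 0.199, FDR 5.13e-06). The 786-O-VHL replicates differed, and without replicate 2 the log2 fold change was 0.60 and the call was lost. RFX7 rose and RFX5 fell by little (log2 0.37 and -0.37, FDR 0.00133 and 0.000222), and both calls were also lost without that library, while that of RFX7 was lost without the shallower 786-O-Ctrl library too. FOXJ1, the master factor of motile cilia, had 1, 1, 0 and 0 counts. Of 12 genes of the motile axoneme, 5 were in the table and 4 were tested, of which HYDIN fell, with 58, 46, 0 and 7 counts (FDR 9.48e-06), although reads from its copy HYDIN2 may be among them.

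**Figure D5:**
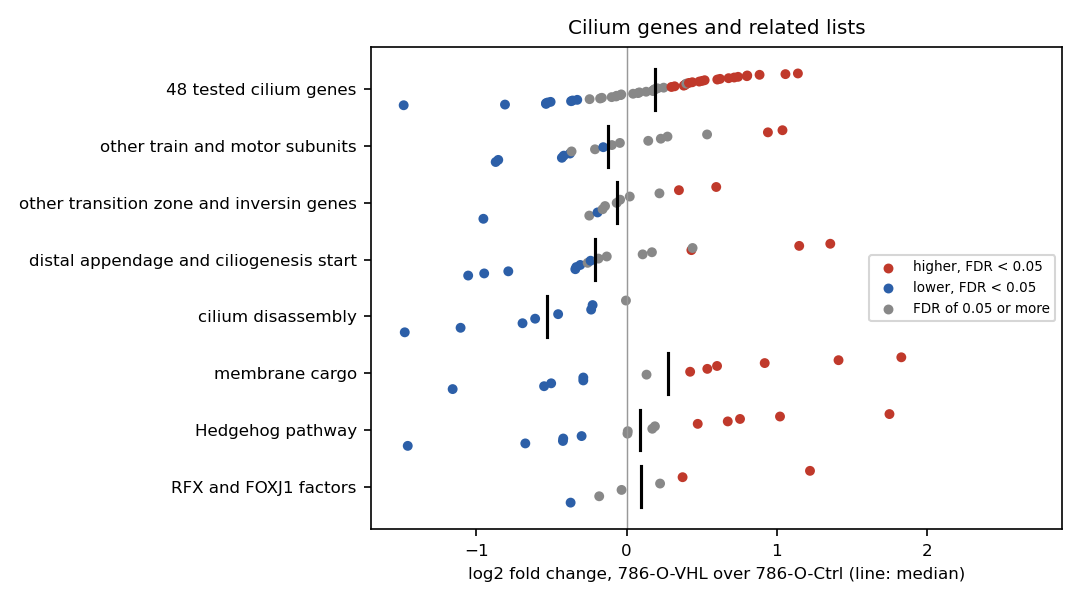
Log2 fold change of the 48 tested cilium genes and of the genes in 7 related lists, 786-O-VHL over 786-O-Ctrl, 1 point per gene, red or blue at FDR < 0.05 and grey otherwise, with the median as a black line. The cilium disassembly list has its median at -0.53, with 7 of 8 genes lower, and the cilium genes have theirs at 0.19.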

How the data were processed

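RNA-seq libraries, 2 from each subline, were analysed. Per the labels, libraries came from a TruSeq kit. The authors aligned reads to hg19 and deposited raw counts per gene as whole numbers, and calculated differential expression with DESeq2. The submitters' processing notes name CASAVA and STAR, and the counting tool is not given in the sources used here. Groups were taken from the labelled genotype. Both 786-O-Ctrl columns carry the same replicate number and were used without one.

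The count model was that of edgeR 4.0.16 under R 4.3.3: filterByExpr at a minimum count of 10, which kept 12335 genes and removed 577, TMM factors (0.951, 0.958, 1.05 and 1.045), the quasi-likelihood F test with no term but the group, and Benjamini-Hochberg adjustment over all genes tested (common dispersion 0.00186). In the lightest library 3 counts correspond to 1.02 CPM and in the others to 0.142 to 0.199 CPM. With 2 libraries per group an exact permutation test could not go below 0.333, and p-values measure the spread between extractions. Replicates differed beyond counting noise (chi-square per degree of freedom 2.25 for the controls and 2.76 for 786-O-VHL).

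The members and lists were chosen with earlier results of these data known. Values in every library are given for up to 3 members per role and direction with the largest fold change at FDR < 0.05, for members not tested or with fewer than 10 counts in a library, and for some others in their role. From each list, up to 2 genes per direction are named, and further genes were named after their values were seen. Coordinates and overlaps are from GENCODE v44 on GRCh37. Counts were simulated for this comparison over 12335 genes, 200 of them changed, with the common dispersion used for every gene. On these, edgeR recovered 91 of 100 changed 2-fold and 97 of 100 changed 4-fold with 4 false calls. In all, limma-voom recovered 187 and DESeq2 172. In the data 64.5% of genes passed and genes need not share a dispersion, so these figures and the order of the tools may not carry over. Alternatives were DESeq2 1.42.0, limma-voom (limma 3.58.1), RLE factors, library totals, other filters, thinning to the shallowest library, each library left out, a replicate block and stricter thresholds. Recomputing the counts of each role and list, and the genes outside the 50, under them was added after seeing the data.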

Additional observations from a re-analysis of the deposited data

How the results depend on the processing

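The reported counts are 20 cilium genes higher and 9 lower. With DESeq2 10 rose and 5 fell, with all libraries thinned to the shallowest 12 and 5, and with a fold change over 1.5 required 10 and 2. Leaving out 1 library gave 13 to 21 higher and 4 to 9 lower, the lowest (13 and 4) without 786-O-VHL replicate 2, and 5 lower without the deeper 786-O-Ctrl library. limma-voom, RLE factors and both other filters gave the same counts, FDR < 0.01 gave 15 and 6, and library totals alone 25 and 6. The cause of these shifts was not tested. The depth of 786-O-VHL replicate 1 limits genes under about 1.02 CPM. The table does not tell which 786-O-Ctrl library has which number, so both pairings were fitted: the replicate block gave 19 higher and 8 lower with the deeper 786-O-Ctrl library paired to 786-O-VHL replicate 1 and 18 and 9 with the shallower one. That pair of deviations correlated with r = -0.00462 across genes. With 2 libraries per group and a shallow 786-O-VHL replicate 1, this value cannot tell whether the samples share more than a number.

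Of the called genes only IFT81 changed sign, to 0.068 (FDR 0.834) after thinning. Genes without a call changed sign as follows, in log2 fold changes. With library totals alone, IFT22 was at 0.034, IFT57 at 0.067, BBS9 at 0.063, CEP290 at 0.094 and TULP3 at 0.10. After thinning, IFT22 was at 0.17, IFT57 at 0.082, IFT74 at -0.076, TTC8 at 0.023, ARL6 at -0.11 and CEP290 at 0.20. Under the replicate block with the deeper 786-O-Ctrl library, BBS7 was at -0.011 and CEP290 at 0.015. Leaving out 1 library gave -0.23 to 0.24 for IFT22, -0.17 to 0.28 for IFT27, -0.14 to 0.13 for IFT57, -0.25 to 0.27 for IFT74, -0.0021 to 0.28 for IFT80, -0.21 to 0.17 for BBS7, -0.17 to 0.073 for BBS9, -0.12 to 0.075 for CEP290, -0.085 to 0.29 for CC2D2A, -0.071 to 0.13 for INVS and -0.050 to 0.28 for CEP164.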
